A study of Mus musculus with 9 samples.

Results

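The immediate early genes Fos, Fosb, Jun, Junb, Jund, Egr1, Ier2, Atf3, Nr4a1 and Dusp1, which are also known as marks of tissue dissociation stress, were followed across 3 stages of neural crest development in the mouse. They were taken by gene symbol, as all probe sets of the array annotated to exactly 1 of these 10 symbols. The rule gave 12 probe sets for 10 genes, of 18193 genes annotated in this way on the array. Jun and Jund had 2 probe sets each and the other genes had 1. The rule used no measured value.

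RNA was hybridised to 9 Affymetrix arrays, 3 per stage, of cells that the submitters collected by laser capture microdissection as neural crest cells or their derivatives. The E8.5 group was captured from embryos at neural tube closure, the E13.5 group from embryonic dorsal root ganglia, and the P90 group from the adrenal medulla of mice 3 months after birth. The labels name no treatment and no engineered allele, and give no strain, sex or number of animals per capture. The samples are named biological replicates. Stage and tissue changed together, so their effects cannot be told apart. Laser capture cuts cells out of a tissue section, and the labels describe no enzymatic dissociation. In such bulk samples, fewer cells of a type and less RNA per cell cannot be told apart.

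Immediate early genes are transcribed within minutes of a stimulus from factors that are already present in the cell, such as serum response factor and CREB, and need no new protein synthesis. Fos and Jun family proteins pair through leucine zippers to form the transcription factor AP-1. Dusp1 encodes a phosphatase that switches off the MAP kinases which induce these genes. In neurons and chromaffin cells the group is known for its response to membrane depolarisation and hormones, and in many tissues it responds to handling, hypoxia and enzymatic dissociation.

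Promoter sequence is shown for the Fos, Junb, Dusp1 and Atf3 genes because Junb and Dusp1 were among the genes that rose, Atf3 fell, and Fos gives the family its name. Each window is the 250 bases before the annotated start in RefSeq on GRCm38.p6, read 5′ to 3′ on the strand of the gene. Capitals mark the cyclic AMP response element TGACGTCA, its 5-base core TGACG or the TATA box TATAAA, on either strand, so that a core on the opposite strand reads CGTCA. The Fos window is chr12:85473640-85473889 on the plus strand, and the windows of Junb (chr8:84978749-84978998), Dusp1 (chr17:26508473-26508722) and Atf3 (chr1:191183334-191183583) are on the minus strand.
Fos: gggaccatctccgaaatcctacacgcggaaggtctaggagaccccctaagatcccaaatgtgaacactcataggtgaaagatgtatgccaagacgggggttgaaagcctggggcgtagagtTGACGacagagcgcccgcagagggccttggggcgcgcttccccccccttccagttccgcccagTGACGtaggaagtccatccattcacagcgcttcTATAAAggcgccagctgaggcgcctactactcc
Junb: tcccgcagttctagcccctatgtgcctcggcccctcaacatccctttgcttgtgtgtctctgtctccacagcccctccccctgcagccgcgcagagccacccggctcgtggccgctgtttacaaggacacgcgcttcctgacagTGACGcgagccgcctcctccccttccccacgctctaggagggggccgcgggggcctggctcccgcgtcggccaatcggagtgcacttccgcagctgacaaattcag
Dusp1: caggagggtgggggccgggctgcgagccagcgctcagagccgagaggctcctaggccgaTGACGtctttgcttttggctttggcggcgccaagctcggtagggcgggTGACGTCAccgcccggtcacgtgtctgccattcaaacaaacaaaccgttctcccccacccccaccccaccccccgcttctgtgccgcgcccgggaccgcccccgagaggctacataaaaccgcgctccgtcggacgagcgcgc
Atf3: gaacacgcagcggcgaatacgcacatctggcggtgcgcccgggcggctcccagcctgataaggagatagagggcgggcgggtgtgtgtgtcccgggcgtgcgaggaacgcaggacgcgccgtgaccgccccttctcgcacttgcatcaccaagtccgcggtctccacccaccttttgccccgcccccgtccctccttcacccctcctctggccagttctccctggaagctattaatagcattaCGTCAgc

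Windows were available for 8 of the 10 genes, and Ier2 and Egr1 were not searched. The full response element TGACGTCA was found in 1 of these 8 windows, that of Dusp1, and in 1.55% of all 32851 promoter windows of the same length. The core TGACG, which the full element holds on each strand and which was added after the sequences were seen, stood in 6 of 8 windows and in 17.8% of all windows. TATAAA was in 1 of 8, that of Fos, against 12.4% of all windows. The AP-1 motif TGANTCA was in 0 of 8 (6.75% of all windows) and the CArG box, bound by serum response factor, in 0 of 8 (1.47%). These counts describe letters in the windows alone. Sequence further from the start was not searched, so a count of 0 does not mean that a gene lacks the site.

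The captured tissues carried their defining markers. Wnt1, a secreted factor made in the dorsal neural tube, had signals of 423 to 585 at E8.5, 2.44 to 10.7 at E13.5 and 2.28 to 5.79 on P90 arrays. The brighter probe set of Isl1, a transcription factor of sensory neurons, had 12.5 to 149 at E8.5, 3153 to 5244 at E13.5 and 88.9 to 1876 on P90 arrays. Pnmt, the enzyme that makes adrenaline, had 15.1 to 30.4 at E8.5, 31.5 to 46.1 at E13.5 and 633 to 3749 on P90 arrays on its brightest probe set. The number of arrays limits the precision of every value. Array medians lay between 38.3 and 48.2 and log2 signals correlated at 0.877 to 0.986 within a stage and 0.809 to 0.91 between stages.

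A pair of arrays stood apart. Actb has control probe sets at both ends of its transcript, and a large 3′ minus 5′ difference is a mark of degraded RNA. On E13.5 replicate 2 it was 7 on the log2 scale, against 0.85 to 4.82 on the other 8 arrays. On P90 replicate 1 the summed signal of 9 chromaffin cell markers was 12750, against 27200 and 26100 on the other P90 arrays. That array also had the highest P90 sums for 8 endothelial markers (4814, against 1202 and 1080) and 6 mesenchymal markers (6028, against 2427 and 1364). Some results for the immediate early genes are therefore given also with such an array left out. Of the adrenal cortex markers, 9 of 17 probe sets, including all of Star and that of Cyp11b1, were empty on all P90 arrays. Of the 9 annotated cortex genes 5 could be tested. Of these, 1 rose at P90 against E13.5, where 3.54% of all genes rose, and 2 at P90 against E8.5, where 10.9% rose.

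Egr1 rose in every comparison of a later with an earlier stage. Egr1, a zinc finger factor, had signals of 22.0, 41.3 and 66.2 at E8.5, 871, 188 and 249 at E13.5, and 1090.1, 1929 and 2669 at P90 (replicates 1, 2 and 3 of each stage). No 2 stages overlapped, and the lowest P90 array exceeded the highest E13.5 array. On the log2(signal + 16) scale used for all tests, Egr1 rose by 2.69 ± 0.57 (SE) at E13.5 against E8.5 (adjusted p = 0.00736) and by 2.30 ± 0.57 at P90 against E13.5 (adjusted p = 0.0252). At P90 against E8.5 the rise was 4.99 ± 0.57 (adjusted p = 1e-04), larger in size than 99.6% of the changes of all genes tested. With E8.5 signals this low, its size follows the pseudocount and no fold is given. It was 5.46 with a pseudocount of 1 and 4.13 with 64. The difference at P90 against E13.5 was no longer called on leaving out replicate 2 or 3 of either stage, with adjusted p of 0.0569 to 0.128. In all, that call was lost in 6 of 27 alternatives.

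Junb, the AP-1 subunit that often restrains Jun, was near the floor of the array at both embryonic stages. Its signals were 1.59, 2.22 and 6.20 at E8.5, 10.8, 2.18 and 23.6 at E13.5, and 207, 163 and 126 at P90. All 3 P90 arrays lay far above the other 6, while the embryonic stages overlapped. Every embryonic signal was under 26.06, the signal used as a filter, so Junb entered the test through its P90 arrays alone and had to differ there. On the log2(signal + 16) scale Junb rose by 2.73 ± 0.30 at P90 against E13.5 (adjusted p = 0.00023) and by 3.21 ± 0.30 at P90 against E8.5 (adjusted p = 2.24e-05). With the embryonic signals this low, the size follows the pseudocount and no fold is given: it was 4.07 and 5.38 with a pseudocount of 1, and 1.59 and 1.75 with 64. Junb was also called in both comparisons when no filter was applied. At E13.5 against E8.5 the difference was 0.48 ± 0.30 (adjusted p = 0.333).

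**Figure D1:**
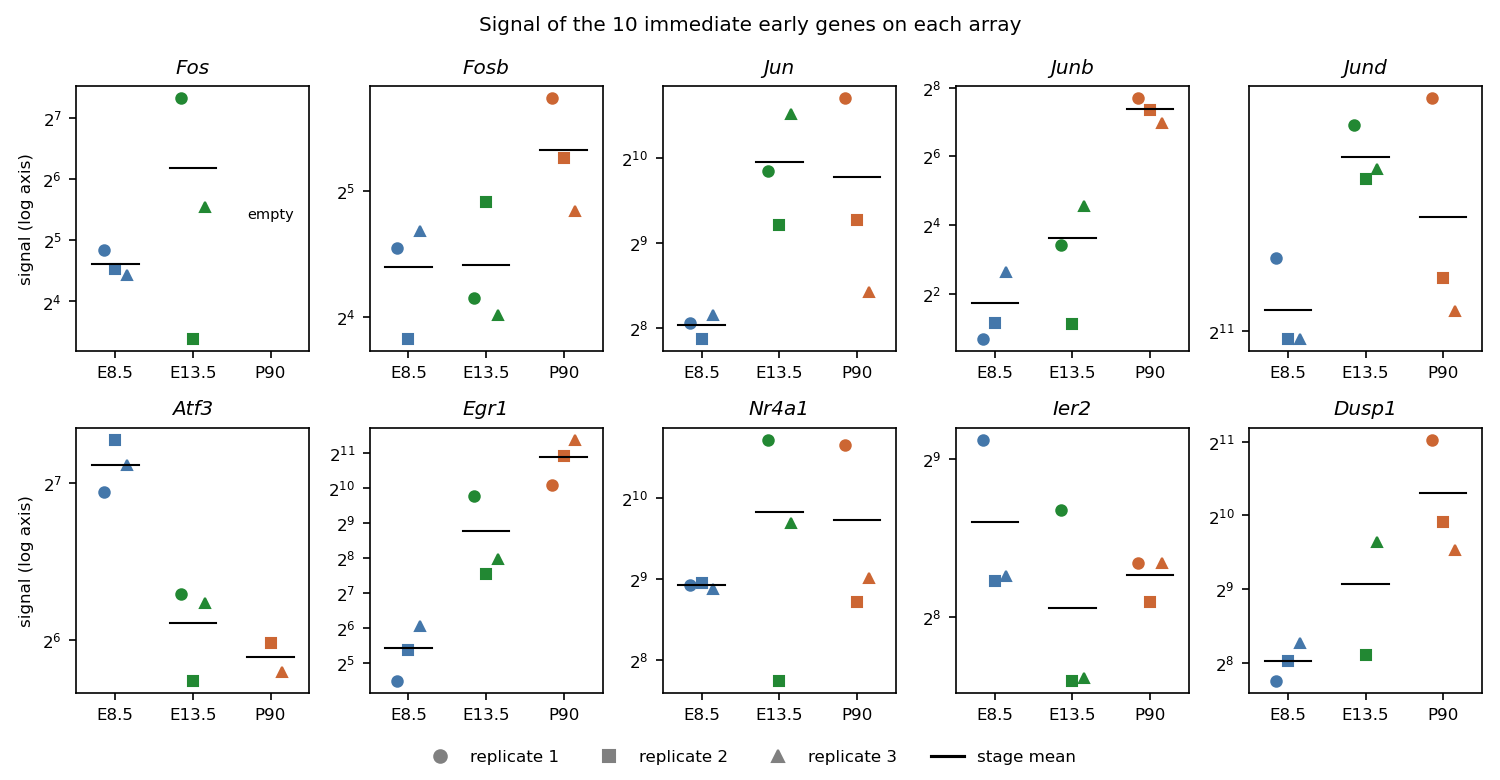
Signal of the 10 genes on every array (the brighter probe set for Jun and Jund), 1 panel per gene, with the stages on the x axis and the array signal on a log2-spaced y axis whose range differs between panels. Symbols give the replicate and bars the stage mean: Egr1 climbs at each stage, Junb is high at P90 alone, Nr4a1 spreads widely in both later stages, and Fos has no point at P90 because those cells are empty.

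Jun, the founding partner of Fos in AP-1, rose at E13.5 against E8.5, and its P90 arrays spread widely. The brighter probe set gave 266, 233 and 284 at E8.5, 924, 592 and 1469.6 at E13.5, and 1671, 618 and 343 at P90. Every E13.5 and P90 array exceeded every E8.5 array, and the P90 values enclosed the E13.5 ones. Jun rose by 1.78 ± 0.55 at E13.5 against E8.5 (adjusted p = 0.0455). The difference at P90 against E8.5 was 1.40 ± 0.55 (adjusted p = 0.0883), and without P90 replicate 1 it was 0.79. The call at E13.5 was lost on leaving out any E8.5 array, P90 replicate 2, or replicate 1 or 3 of E13.5, with adjusted p of 0.0664 to 0.172. In all, it was lost in 12 of 26 alternatives.

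The dimmer Jun probe set gave 53.2, 85.8 and 88.9 at E8.5, 181, 53.7 and 137 at E13.5, and 270.3, 125 and 133 at P90. In the fit over all 24013 probe sets its difference was 0.50 ± 0.43 at E13.5 against E8.5 and 1.01 ± 0.43 at P90 against E8.5 (adjusted p = 0.521 and 0.128), and at E13.5 its stages overlapped. In that fit the brighter Jun probe set just missed the threshold (adjusted p = 0.0532). Neither probe set of Jun was called in any comparison of that fit.

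Jund, a Jun family member with high basal expression in many tissues, passed the test in no comparison. Its brighter probe set gave 2499, 2000.2 and 2000.3 at E8.5, 3596, 3099 and 3185 at E13.5, and 3872, 2364 and 2159.8 at P90. The E13.5 arrays all exceeded the E8.5 arrays, with a difference of 0.61 ± 0.32 (adjusted p = 0.246), and the P90 arrays overlapped both. The other Jund probe set stayed between 18.3 and 34.3 on all 9 arrays, and its stages overlapped in every comparison.

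Among the Fos family, Fosb was dim throughout and Fos could be read in the embryonic stages alone. Fosb gave 23.3, 14.1 and 25.7 at E8.5, 17.7, 30.2 and 16.1 at E13.5, and 53.6, 38.5 and 28.7 at P90. Its P90 arrays exceeded the E8.5 arrays and overlapped the E13.5 arrays. The difference at P90 against E8.5 was 0.59 ± 0.25 (adjusted p = 0.112). Fos gave 28.6, 23.2 and 21.7 at E8.5, and 159.9, 10.4 and 46.5 at E13.5. The lowest Fos value was on E13.5 replicate 2, the array with the largest Actb difference, and the 2 stages overlapped.

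All 3 P90 cells of the Fos probe set were empty in the deposited table, so Fos was not tested across the stages and its P90 level is unknown. In a fit of the 6 embryonic arrays over 13781 genes, the Fos difference at E13.5 against E8.5 was 0.71 ± 0.56 (adjusted p = 0.454). Probe sets empty on all arrays of a stage were rare: 65 at E8.5 (0.144% of all), 244 at E13.5 (0.541%) and 118 at P90 (0.262%). Fosl2 and Cebpb, a Fos family member and another immediate early factor, each had 1 probe set empty on all P90 arrays, as did the small heat shock gene Hspb1. Markers of the tissue itself were empty too, with 3 of 22 chromaffin probe sets at P90, 12 of 41 sensory neuron probe sets at E13.5, Pou4f1 among them, and 1 of 22 neural crest probe sets at E8.5, of Pax3. No source used here gives the reason, so an empty cell stands for neither a high nor a low level.

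Atf3 was the 1 gene of the group that fell. This stress-induced bZIP factor, which marks injured sensory neurons, gave 123, 155 and 139 at E8.5, 78.2, 53.3 and 75.3 at E13.5, and 63.2 and 55.6 at P90 replicates 2 and 3. P90 replicate 1 was empty. The E8.5 arrays were above all others, and the later stages overlapped. Atf3 fell by 0.87 ± 0.27 at E13.5 against E8.5 (adjusted p = 0.0492) and fell by 1.03 ± 0.30 at P90 against E8.5 (adjusted p = 0.0298). The E13.5 call was lost in 16 of 23 alternatives. Among these were leaving out any 1 of the 6 embryonic arrays (adjusted p 0.061 to 0.167), the fit over all probe sets (0.0549) and the fit with no filter (0.069). The P90 call was lost in 3 of 23, without E8.5 replicate 2 or 3 (0.0793 to 0.102) and with the replicate number as a block (0.0633).

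Dusp1 gave 215, 259.9 and 309 at E8.5, 276 and 801 at E13.5 replicates 2 and 3, and 2080.2, 966 and 739 at P90. The cell of E13.5 replicate 1 was empty. The P90 arrays exceeded all E8.5 arrays and overlapped E13.5 replicate 3. Dusp1 rose by 2.08 ± 0.51 at P90 against E8.5, or 4.22-fold (adjusted p = 0.014), and the rise was 1.65 without P90 replicate 1 (adjusted p = 0.0303). The call was lost without E8.5 replicate 1 or 2 (0.053 to 0.0575), and over all alternatives the adjusted p ran from 7.11e-05 to 0.0575. The differences at E13.5 against E8.5 and at P90 against E13.5 were 0.83 ± 0.57 and 1.25 ± 0.57 (adjusted p = 0.395 and 0.243). Both rest on 2 E13.5 values, and that of replicate 2 is from the array with the largest Actb difference. Dusp1 was not tested without that array.

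Nr4a1 and Ier2 did not pass the test in any comparison. Nr4a1, an orphan nuclear receptor, gave 489, 496 and 469 at E8.5, 1681, 213 and 824 at E13.5, and 1605, 421 and 515 at P90. The E8.5 arrays were nearly equal, and both later stages held arrays above and below them. At E13.5 the array below was replicate 2, which had the largest Actb difference. The largest Nr4a1 difference in the main fit was 0.53 ± 0.69 at P90 against E8.5 (adjusted p = 0.631), and without P90 replicate 1 it was −0.06. At E13.5 against E8.5 it was 0.46 ± 0.69, and the alternatives ran from −0.19 to 1.26 (adjusted p 0.0722 to 0.878). Ier2, named for its immediate early response, gave 556, 300.4 and 307 at E8.5, 409.6, 193 and 196 at E13.5, and 325, 273 and 324 at P90. Its stages overlapped in every comparison, and the largest difference was −0.54 ± 0.40 at E13.5 against E8.5 (adjusted p = 0.426).

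The genes were also counted against all 13748 genes tested. Of the 10 genes, 9 were tested, and Fos was left out for its empty P90 cells. At E13.5 against E8.5, 2 of 9 rose (Egr1 and Jun), where 9.27% of all genes rose, and 1 fell (Atf3), where 7.22% fell. At P90 against E13.5, Egr1 rose and so did Junb, where 3.54% of all genes rose, and limma called 0 of 9 lower, where 5.94% fell. In that comparison 3 genes, Junb among them, had an unadjusted p under 0.05, all higher at P90. The share of all genes at that p was not computed, so nothing is read from this count. At P90 against E8.5, Egr1 and Dusp1 rose and so did Junb, where 10.9% of all genes rose, and 1 of 9 fell (Atf3), where 12.5% fell. Since Junb had to differ once it passed the filter, nothing is read from the counts, medians or shares that include it.

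Arrays of the compared stages did not overlap, with the later stage higher, in 3 of 9 genes at E13.5 against E8.5 (18.6% of all genes), 2 at P90 against E13.5 (9.59%) and 5 at P90 against E8.5 (20.3%). They did not overlap with the later stage lower in 1, 0 and 1 genes, against 17.1%, 13.9% and 23.6% of all genes. The median log2 change of the 9 genes was 0.48, 0.28 and 0.59 in the same order of comparisons, against 0.02, −0.05 and 0 over all genes. An F-test over the 3 stages called 4 of 9 (Egr1, Junb, Dusp1 and Atf3), where it called 26.3% of all genes. The 3 comparisons share arrays and are not independent of each other. In the fit over probe sets, 15%, 7.48% and 20.8% of all probe sets changed in either direction in these comparisons.

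**Figure D2:**
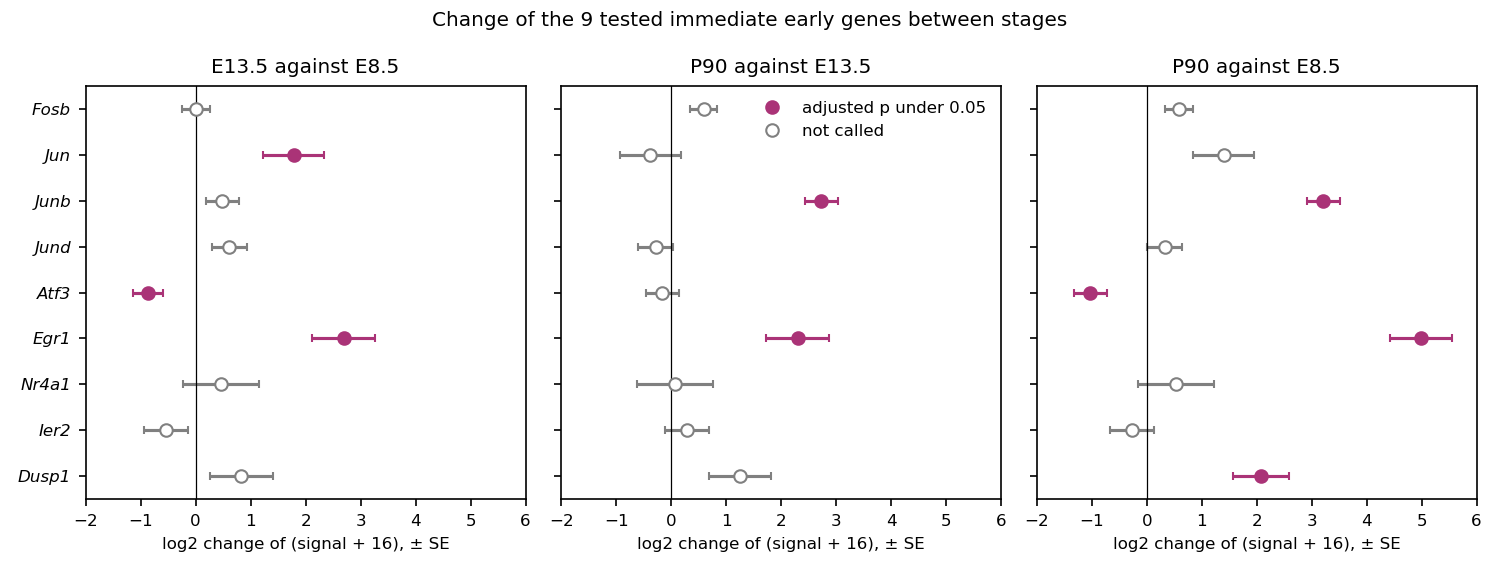
Log2 change of the 9 tested genes in the 3 comparisons, on the log2(signal + 16) scale on the x axis, with standard errors as bars and 1 row per gene. Filled points passed an adjusted p of 0.05. Egr1 stands to the right of 0 in all comparisons, Junb in both that involve P90, and Atf3 to the left of 0.

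How far the genes varied among arrays of 1 stage differed between them. Nr4a1 had a pooled within-stage SD of 1.03 on the log2 scale, larger than that of 95.4% of all tested genes, whose median was 0.47. Egr1, Dusp1 and Jun had SDs of 0.82, 0.76 and 0.75, at percentiles 87.9, 84.7 and 84 of all genes. Atf3, Fosb and Jund had SDs of 0.18, 0.29 and 0.29, at percentiles 2.98, 17.4 and 17.8, with Junb (0.39) and Ier2 (0.45) between. Nr4a1, Jun and Dusp1 were all highest at P90 on replicate 1, at 1.17, 1.21 and 0.86 above their stage means. Egr1 went the other way on that array, at −0.70.

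On P90 replicate 1, 7 of 8 genes lay above their P90 mean, with a median deviation of 0.42, where the median over all genes was 0.17. On E13.5 replicate 2, 1 of 9 lay above the E13.5 mean, with a median of −0.56 against −0.30 over all genes. The Actb difference was the smallest of its stage on P90 replicate 1 (1.36, against 4.09 and 3.51) and the largest on E13.5 replicate 2 (7, against 0.85 and 2.87). At E8.5, where it was 4.82, 2.05 and 2.39, the median deviations were 0.01, −0.08 and 0.12. With the Actb difference as a covariate, Egr1 and Junb at P90 against E8.5 changed by 4.97 and 3.20, and Jun at P90 against E8.5 by 1.38, now past the test (adjusted p = 0.0417, where all alternatives ran from 0.00885 to 0.237). Dusp1 at E13.5 against E8.5 then also passed, at 1.43 (adjusted p = 0.0354, with alternatives from 0.00188 to 0.58).

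**Figure D3:**
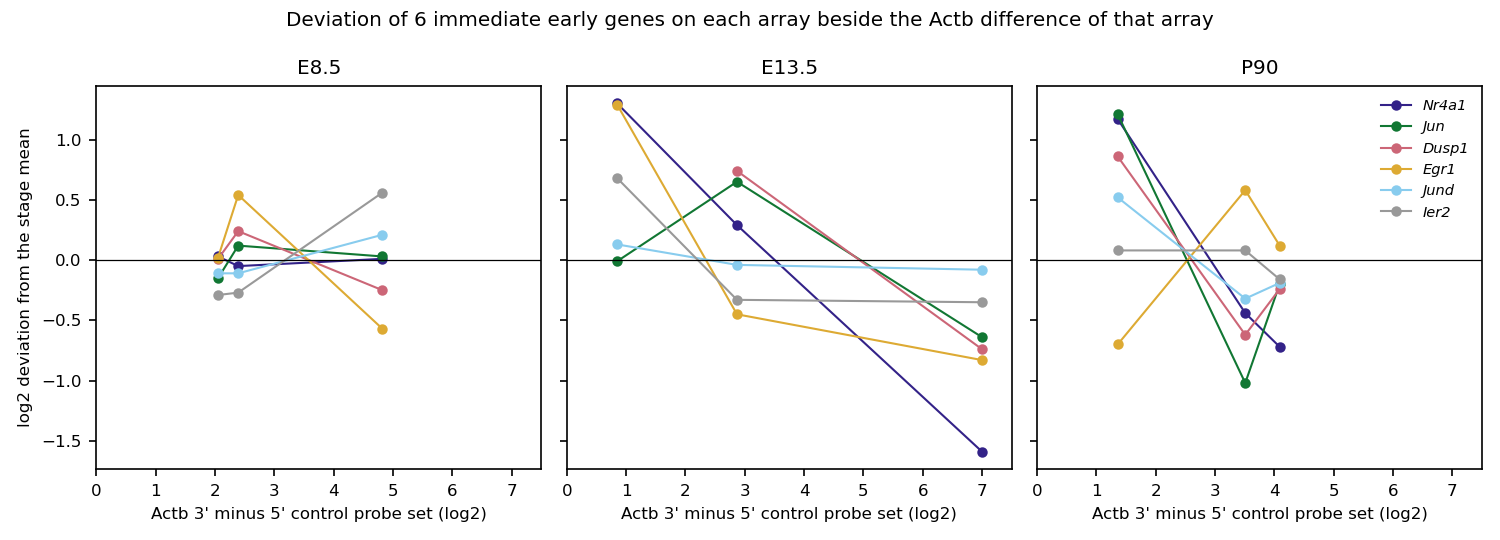
Deviation of Nr4a1, Jun, Dusp1, Egr1, Jund and Ier2 from their stage mean in log2 units (y axis) against the Actb 3′ minus 5′ difference of the array (x axis, log2), 1 panel per stage; lines join the arrays of a gene. At E13.5 all drawn genes are below 0 on the array at 7, at P90 Nr4a1 and Jun are highest on the array at 1.36 and Egr1 is lowest there, and at E8.5 the genes follow no single direction.

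Markers of other cell types also differed between stages. Of 7 macrophage markers tested, 5 rose at P90 against E8.5, where 10.9% of all genes rose. Of 6 red cell markers tested, 2 fell and 1 rose in that comparison, where 12.5% of all genes fell. Those with no empty cell (5 of 10) summed to 605 to 4863 at E8.5, 766 to 2924 at E13.5 and 74.2 to 93.8 on P90 arrays. Summed over 6 of 10 macrophage markers with no empty cell, the signal was 919 to 1516 at E8.5, 1771 to 2028 at E13.5 and 2307 to 3743 on P90 arrays. Csf1r, the macrophage growth factor receptor, gave 818 to 1431, 1518 to 1874 and 1807 to 2195 on its brightest probe set. That probe set makes up most of the macrophage sum on every array. Another Csf1r probe set gave 222 to 304, 273 to 421 and 279 to 508, with overlapping stages. The dimmest lay between 21.9 and 70.1 on all arrays. C1qa and C1qb had a probe set empty on all P90 arrays. Endothelial markers (8 of 10) summed to 424 to 1239 at E8.5, 1285 to 2256 at E13.5 and 1080 to 4814 on P90 arrays, with Pecam1 between 5.12 and 44.7 on all arrays. Mesenchymal markers (6 of 10) summed to 2224 to 3236, 4035 to 13350 and 1364 to 6028. Within E13.5 they were 13350, 4035 and 8146, the same order of arrays as for Nr4a1. The sensory neuron, chromaffin and endothelial sums had this order at E13.5 too, and the other marker sums did not. Within P90 the mesenchymal sums were 6028, 2427 and 1364, another order than that of Nr4a1 (1605, 421 and 515). The part of any cell type in the immediate early signal was not tested.

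The genes with the array pattern most like Jund, Nr4a1 and Jun, the 3 of the group with the highest mean log2 signal among those with a value on every array, are given as a description over 9 arrays, which share stages and RNA quality with each gene. Among 12749 genes, Mcu (Pearson r = 0.984), Ccr6 (0.98) and Mtmr1 (0.979) were closest to Jund. Cry2, a clock repressor, was closest to Nr4a1 (0.987), followed by Rassf8 and Gna12 (both 0.979). Cry2 gave 214, 246 and 233 at E8.5, 1107, 87.6 and 318 at E13.5, and 907, 194 and 222 at P90, so it too was lowest on E13.5 replicate 2 and high on E13.5 and P90 replicate 1. Fgd5 (0.986), Creb3 (0.976) and Igdcc4 (0.975) were closest to Jun.

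Another 5 related lists were described beside these genes. Over all genes, 9.27% rose and 7.22% fell at E13.5 against E8.5. The shares were 3.54% and 5.94% at P90 against E13.5, and 10.9% and 12.5% at P90 against E8.5. Nothing is read from a list count near or under these shares. For an unadjusted p under 0.05 the share of all genes was not computed, so nothing is read from list counts at that p. Of 11 further AP-1 and bZIP partners, 8 were tested. Jdp2, which pairs with Jun and represses AP-1, rose by 1.69 ± 0.34 at E13.5 against E8.5 and by 1.59 ± 0.34 at P90 against E8.5 (adjusted p = 0.00573 and 0.00599). Its mean signal was 116 ± 20.1 at E8.5, 409 ± 38.4 at E13.5 and 393 ± 128 on P90 arrays (SD). It was the 1 partner called in each of these comparisons. At P90 against E13.5 limma called 0 of 8, with 1 higher and 1 lower at an unadjusted p under 0.05. The list medians were 0.25, −0.15 and 0.27 in the order used above, where those of all genes were 0.02, −0.05 and 0.

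Of 38 other immediate early genes, 33 were tested. Over all genes 9.27% rose and 7.22% fell at E13.5 against E8.5. In this list 2 rose and 0 fell (4 higher and 2 lower at an unadjusted p under 0.05). They were Cebpd, an acute-phase transcription factor, by 1.72 ± 0.48 (adjusted p = 0.0307), and the zinc finger factor Klf4, by 1.58 ± 0.47 (adjusted p = 0.0406). At P90 against E13.5, 2 rose and 0 fell (5 higher and 0 lower unadjusted), where 3.54% and 5.94% of all genes did. Btg2, an antiproliferative gene, rose by 2.03 ± 0.33 (adjusted p = 0.00241), and Ccn2, a matricellular growth factor, by 1.74 ± 0.48 (adjusted p = 0.0421). Cebpd missed the threshold on leaving out replicate 2 or 3 of E8.5, or replicate 1 or 3 of E13.5. Klf4 kept its call only without E13.5 replicate 2 or P90 replicate 1, and Ccn2 only without E13.5 replicate 1 or P90 replicate 3.

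At P90 against E8.5, 4 of the 33 rose and 1 fell (13 higher and 2 lower unadjusted), where 10.9% of all genes rose and 12.5% fell. The share called as risen was thus near that of all genes. Btg2 rose by 2.52 ± 0.33 (adjusted p = 0.000246), with mean signals of 98.4 ± 11.8 at E8.5, 149 ± 48.1 at E13.5 and 641 ± 48.6 on P90 arrays (SD), and it kept both of its calls on leaving out any 1 array. Cebpd rose by 2.01 ± 0.48 (adjusted p = 0.0109). Homer1, which encodes a scaffold of glutamate receptors and a short activity-induced form, fell by 1.79 ± 0.42 (adjusted p = 0.0102), and like Cebpd it was no longer called without E8.5 replicate 2. The median changes of the list were 0.32, 0.31 and 0.52 in the 3 comparisons, against 0.02, −0.05 and 0 over all genes.

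The feedback phosphatases and sprouty genes, which damp MAP kinase signalling as Dusp1 does, held changes in both directions. Of 14 tested, 1 rose and 1 fell at E13.5 against E8.5, 0 rose and 1 fell at P90 against E13.5 (0 higher and 2 lower unadjusted), and 1 rose and 2 fell at P90 against E8.5. Dusp8, a phosphatase of JNK and p38, rose by 2.57 ± 0.31 at E13.5 against E8.5 (adjusted p = 0.000294) and fell by 1.36 ± 0.31 at P90 against E13.5 (adjusted p = 0.0174). Dusp5, a nuclear phosphatase of ERK, fell by 1.59 ± 0.31 at E13.5 against E8.5 and fell by 2.05 ± 0.31 at P90 against E8.5 (adjusted p = 0.00438 and 0.000693). It gave mean signals of 139 ± 61.8 at E8.5, 32.9 ± 6.5 at E13.5 and 19.7 ± 4.53 on P90 arrays (SD). Dusp4 fell by 2.46 ± 0.76 at P90 against E8.5 (adjusted p = 0.0351), which passed only while all E8.5 arrays, replicate 3 of E13.5 and replicates 2 and 3 of P90 were in the fit. The fall of Dusp8 was lost without E13.5 replicate 3 or P90 replicate 2. Dusp8 was also the gene that rose at P90 against E8.5, by 1.21 ± 0.31 (adjusted p = 0.0151), a call lost without replicate 2 of E8.5 or replicate 2 or 3 of P90. The list medians were −0.12, −0.33 and −0.08.

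Of the upstream kinases and factors, 18 of 24 listed were tested and the others were not analysed here. At E13.5 against E8.5, 2 rose and 0 fell (3 higher and 0 lower unadjusted), both of them neuronal kinases. Mapk10, the neuronal JNK, rose by 5.78 ± 1 (2 of 3 E13.5 arrays with a value) and Camk4, which phosphorylates CREB, by 3.28 ± 0.74 (adjusted p = 0.00281 and 0.0102). Signals of Mapk10 at E8.5 were 11.0 to 16.8, all under the filter of 26.06, so it entered the test through later arrays alone. The size of its changes against E8.5 follows the pseudocount, and its P90 signals ran from 42.0 to 1249. Mapk8, the broadly expressed JNK1, fell by 2.37 ± 0.38 at P90 against E13.5 and fell by 1.93 ± 0.38 at P90 against E8.5 (adjusted p = 0.00231 and 0.00347). It was the 1 gene of the list called lower in each of these comparisons. At P90 against E13.5, 0 rose (1 higher and 2 lower unadjusted), and at P90 against E8.5, 3 rose, with list medians of 0.32, 0.17 and 0.59. The 3 were Mapk10, by 3.61 ± 0.89 (adjusted p = 0.0142), Camk4, by 2.22 ± 0.74 (adjusted p = 0.0492), and Crem, by 0.99 (adjusted p = 0.0235), which is named after its values were seen. Mapk10 missed the threshold on leaving out replicate 1 or 2 of E8.5, replicate 3 of E13.5 or replicate 3 of P90, and without probe sets that may cross-hybridise. Camk4 passed only while all E8.5 arrays, replicate 3 of E13.5 and replicates 2 and 3 of P90 were in the fit. Calls of Mapk8 and the E13.5 call of Camk4 were kept on leaving out any 1 array. The E13.5 call of Mapk10 was lost in none of these fits. Its probe set is not tested without either E13.5 array that has a value, so those fits do not bear on it.

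Heat shock genes are another group induced by cell stress. At P90 against E8.5, 4 of 13 tested rose and 0 fell (4 higher and 0 lower unadjusted), where 10.9% and 12.5% of all genes did, with a list median of −0.21 against 0 for all genes. Hspa1b, an inducible Hsp70, rose by 3.41 ± 0.55 (adjusted p = 0.00114), and kept this call on leaving out any 1 array. Its mean signals were 142 ± 9.87 at E8.5, 564 ± 245 at E13.5 and 2018 ± 1420 on P90 arrays (SD), and it is uncertain which gene they come from because Hspa1a, another of the 4 called, is a near-identical copy. Dnajb4, an Hsp40 co-chaperone, rose by 2.26 ± 0.73 (adjusted p = 0.043), which passed only while all E8.5 arrays, replicate 3 of E13.5 and replicates 1 and 2 of P90 were in the fit. At E13.5 against E8.5, Hspa1b alone rose, by 1.77 ± 0.55 (adjusted p = 0.0499), and 0 fell (1 higher and 1 lower unadjusted). That call needed all E8.5 arrays, replicates 1 and 3 of E13.5 and replicate 2 of P90 in the fit. At P90 against E13.5 limma called 0 of 13, with 3 higher and 0 lower at an unadjusted p under 0.05. The list medians at E13.5 against E8.5 and at P90 against E13.5 were −0.28 and 0.39.

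**Figure D4:**
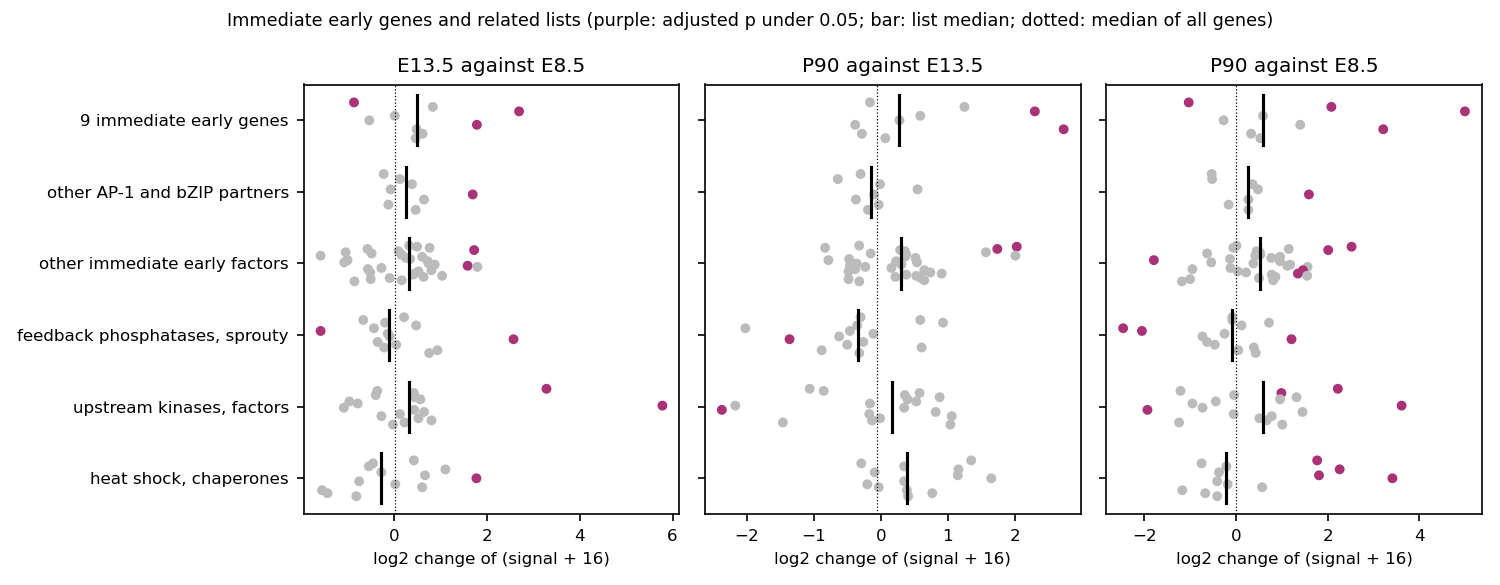
Log2 change of the 9 tested immediate early genes and of the tested genes of 5 related lists in the 3 comparisons, on the log2(signal + 16) scale (x axis); each point is a gene, purple where the adjusted p is under 0.05, bars are list medians and the dotted line is the median of all genes. The immediate early genes have medians of 0.48, 0.28 and 0.59, which include Junb and from which nothing is read. The dotted line is at 0.02, −0.05 and 0, and every list holds genes on both sides of it.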

How the data were processed

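The 9 arrays, 3 per stage, were hybridised with biotinylated cRNA made from 400 ng of PicoPure-extracted total RNA, per the labels' protocols. The deposited table holds 1 linear intensity per probe set and array, with a floor of 1. MAS5, GCOS, RMA and GCRMA are named in the submitters' processing notes with no role or version, and the scaling is not given in the sources used here. Of 45101 probe sets, 34945 had exactly 1 gene symbol, and 8048 of 405909 cells (1.98%) were empty.

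The log2 values were computed from the deposited intensities as log2(signal + 16), without further scaling. Probe sets entered the test if at least 3 of 9 arrays were above a signal of 26.06, the 40th percentile of the table, and each stage had 2 values, a rule made for the empty cells. The brightest probe set represented each of 13748 genes. Stages were compared in 1 fit with limma 3.58.1 in R 4.3.3 (lmFit and eBayes, variance trend on), two-sided. P-values were adjusted over all genes by the Benjamini-Hochberg method. A gene was called at an adjusted p under 0.05, and "rose" and "fell" are used of called genes only. The labels call the samples of a stage biological replicates without naming animals, so p-values measure the spread between these samples, which may be partly technical.

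The genes and lists were chosen with earlier results of these data known. Named genes are all 10 members, the 2 most changed called genes per direction, list and comparison, fixed tissue markers, and the 3 genes closest in pattern to the 3 brightest members without an empty cell. Genes named for empty cells were chosen after these were seen. Sequences are from RefSeq (GRCm38.p6). The fit was also run on simulated data, which held no empty cells and no array of poorer quality, so nothing is read from that run. Alternatives covered pseudocounts, filters, probe set choice, quantile normalization, array weights, a replicate block, the Actb difference and leaving out each array.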

Additional observations from a re-analysis of the deposited data

How the results depend on the processing

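The main counts of called immediate early genes were 3 at E13.5 against E8.5, 2 at P90 against E13.5, 4 at P90 against E8.5 and 4 for any stage. Over all genes they were 2267, 1303, 3209 and 3619. Egr1 (E13.5 against E8.5 and P90 against E8.5) kept its calls in all 27 alternatives run. Junb (both comparisons with P90) did so too, but it had to differ wherever a signal filter was kept. Nothing is therefore read from its calls there. With no filter its adjusted p was 0.000712 at P90 against E13.5 and 8.95e-05 at P90 against E8.5. Egr1 ranged from 1.99 to 3.1 and from 4.13 to 5.46, and Junb from 1.59 to 4.07 and from 1.75 to 5.38. Of 696 values of single genes under an alternative, 619 kept direction and side of the threshold, 39 lost a call, 18 gained one and 20 changed sign. The cause of these changes was not tested.

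At E13.5 against E8.5 the count was 1 with no filter, without _x_at and _s_at probe sets, with every probe set on its own and with the replicate block. It was 6 with array weights, 5 with the Actb covariate and quantile normalization, and 1 without E8.5 replicate 1, E13.5 replicate 2 and P90 replicate 2, the arrays of largest Actb difference in their stages (chosen after seeing the data). At P90 against E13.5 it was 4 with array weights, and 1 with only the arrays compared or without the arrays of largest Actb difference. At P90 against E8.5 and for any stage it was 2 with no empty cell and 2 without the arrays of largest Actb difference. Atf3 and Dusp1 are not tested in either of these settings, in any comparison. For any stage it was 7 with array weights.

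Over all genes, array weights gave 5751, 4302, 6656 and 8459 calls, and the Actb covariate with quantile normalization 3887, 2569, 5244 and 5924. The Actb covariate alone gave 2034 at P90 against E13.5, only the arrays compared gave 838 there, and leaving out the arrays of largest Actb difference gave 2036 at P90 against E8.5. Leaving out each array in turn gave 1 to 3, 1 to 2, 2 to 4 and 2 to 4 called genes of the group, and 1348 to 2828, 647 to 1775, 2017 to 3887 and 2384 to 4426 of all genes. The lowest counts of all genes came without E8.5 replicate 2, or without E13.5 replicate 3 at P90 against E13.5. Dusp1 was not tested without E13.5 replicate 2 or 3, Atf3 not without P90 replicate 2 or 3, and Fosb not with the 60th percentile filter.

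Sign changes all concerned differences that missed the threshold in both settings. Fosb at E13.5 against E8.5 (0.01) was −0.03 with quantile normalization, −0.1 with array weights, −0.02 with the Actb covariate, −0.04 with both Actb and quantile normalization, −0.14 without E8.5 replicate 2, −0.16 without E13.5 replicate 2 and −0.11 without the arrays of largest Actb difference. Nr4a1 at P90 against E13.5 (0.07) was −0.75 with array weights, −0.18 with the Actb covariate, −0.73 without E13.5 replicate 2, −0.52 without P90 replicate 1 and −0.36 without the arrays of largest Actb difference. Nr4a1 was −0.19 at E13.5 against E8.5 without E13.5 replicate 1, and −0.06 at P90 against E8.5 without P90 replicate 1. Jund at P90 against E13.5 (−0.28) was 0.09 with quantile normalization and 0.17 with Actb and quantile normalization. Jun there (−0.38) was 0.06 with the mean of probe sets and 0.13 without P90 replicate 3. Ier2 at P90 against E8.5 (−0.27) was 0.01 without E8.5 replicate 1 and 0.09 without the arrays of largest Actb difference. Leaving out each array, these differences ranged up to 0.11 for Fosb, to 1.25, 0.72 and 0.89 for Nr4a1 in the order of the main counts, down to −0.99 for Jun and down to −0.42 for Ier2.

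Deviations of same-numbered arrays of different stages correlated at −0.37 to 0.39, and 3 of 9 pairs exceeded 0.1. For arrays of different number the range was −0.38 to 0.43, and 7 of 18 pairs exceeded 0.1. With 3 arrays per stage, these values cannot exclude that the numbers pair the samples. The replicate block gave 1, 2, 3 and 3 called genes of the group and 2191, 1244, 3203 and 3573 of all genes. Under the block, Jun at E13.5 against E8.5 and both Atf3 calls were lost (adjusted p = 0.052, 0.0831 and 0.0633).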
